A study of Mus musculus with 6 samples.

Results

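The cytosolic ribosomal protein genes encode the protein components of the ribosome outside mitochondria. Members were the protein-coding genes whose GRCm38 symbol is Rpl or Rps followed by a digit, together with Rplp0, Rplp1, Rplp2 and Rpsa, and without the Rps6k kinases and the pseudogenes whose symbols end in -ps. This rule gave 86 genes of the 55573 in the count tables, 52 named for the large and 34 for the small ribosomal subunit. Of these, 77 are core members and 9 are paralogs or look-alikes: Rpl22l1, Rpl36al, Rpl39l, Rpl3l, Rpl10l, Rpl7l1, Rps19bp1, Rps27l and Rps27rt. The filter on low counts kept 83 members for testing.

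RNA was measured in 6 libraries of mouse regulatory T cells (Tregs) sorted from spleen, 3 Nfkb2-/- and 3 wild type. The mice were bi-parental bone marrow chimeras, whose blood cells descend from transplanted marrow, and the labels give no age, sex, strain or host genotype. Nfkb2 encodes p100, which is processed to p52 in the noncanonical NF-kappaB pathway, and the study asks how it acts in Treg homeostasis and activation. The sorted cells, over 90% pure per the labels, were rested in medium for 2 h before lysis, in both genotypes. The labels call the 3 libraries of a genotype biological repeats without saying what each repeat was, so the p-values measure the spread between these libraries.

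Each ribosome carries 1 copy of nearly every ribosomal protein, and the stalk proteins P1 and P2 are the exception. The mRNAs of most of these proteins start with a terminal oligopyrimidine tract (TOP), a C followed by a run of C and T, which places their translation under mTORC1 and LARP1. In T cells ribosome production is known to increase on activation, and the mRNAs are among the most abundant in any cell. RPS3 has also been described as a nuclear partner of the NF-kappaB subunit RelA.

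The start sequences below show the tract in members on which the results turn and, for contrast, a start without it. Each gives 15 bases before and 15 from the RefSeq transcription start of the GRCm38.p6 table, with the tract in capitals. Rps6, at chr4:86857353-86857382 on the minus strand, and Rpl38, at chr11:114668565-114668594 on the plus strand, show the usual form. Rps10, at chr17:27635230-27635259 (minus), and Rpl35, at chr2:39005117-39005146 (minus), are members whose mRNAs overlap other annotated genes. Rps27, at chr3:90213634-90213663 (minus), and Rps27rt, at chr9:114982725-114982754 (minus), are a gene and its near copy. Rpl22l1, at chr3:28805493-28805522 (plus), has its tract a few bases into the transcript, and Rps3, at chr7:99483695-99483724 (minus), has no match.
Rps6: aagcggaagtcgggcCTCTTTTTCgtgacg
Rpl38: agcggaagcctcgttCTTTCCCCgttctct
Rps10: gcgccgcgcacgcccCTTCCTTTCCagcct
Rpl35: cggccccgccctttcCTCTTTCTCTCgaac
Rps27: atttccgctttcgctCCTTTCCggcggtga
Rps27rt: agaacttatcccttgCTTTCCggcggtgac
Rpl22l1: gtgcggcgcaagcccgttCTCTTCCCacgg
Rps3: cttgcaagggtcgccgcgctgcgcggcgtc

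Of the 86 members, 66 had an entry in the RefSeq promoter table. A tract, searched on the sense strand as a C within 5 bases of the start followed by at least 5 bases that are C or T, stood in 27 of the 66, or 40.9%. Among all 27025 genes in that table the share was 11.9%. A start placed a few bases off hides a tract, so a start without a match says only that these letters are not in this window.

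Library totals ran from 12005273 to 17278521 counts, wild-type library 1 being the deepest. Nfkb2 itself was lower and not absent in the Nfkb2-/- libraries, at 269, 324 and 271 CPM (read counts scaled to a common library size) against 558, 545 and 556 CPM in wild type (log2 fold change -0.94, edgeR adjusted p = 0.0203). Foxp3, the factor that defines Tregs, was at 407 to 622 CPM in all 6 libraries. The summed level of 12 B cell markers, none at 0, was 66.0 to 90.6 CPM in Nfkb2-/- and 152 to 344 CPM in wild type, and 2 of the 12 were called lower. For 6 dendritic cell markers, none at 0, the sums were 88.8 to 128 CPM against 23.7 to 59.1 CPM, with 1 called higher. Not every marker of this list followed the sum. With Nfkb2-/- first, mean Flt3 was 0.585 against 1.86 CPM and mean Siglech 2.45 against 7.25 CPM. Libraries of the genotypes overlapped for both genes, and wild-type library 2 was the highest, at 3.96 and 20.8 CPM. Xist was at 592 to 883 CPM in Nfkb2-/- and at 1.94 to 16.5 CPM in wild type. The sums of 4 Y-linked genes were 40.0, 138 and 275 CPM in Nfkb2-/- libraries 1 to 3 and 465 to 498 CPM in wild type. Every Nfkb2-/- library thus held Xist reads and Y-linked reads together, the latter in unequal amounts. Genotype and the sex of the cells therefore cannot be told apart, and the part of the other cells in the results was not tested.

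Reads from the 86 members made up 6.54%, 6.37% and 6.56% of the counts in Nfkb2-/- libraries 1 to 3 and 5.12%, 7.06% and 9.63% in wild-type libraries 1 to 3. The means were 6.49% ± 0.106 (SD, n = 3) and 7.27% ± 2.26 (SD, n = 3). The Nfkb2-/- libraries lay close together between wild-type library 1, the lowest, and wild-type library 2. The genotypes overlapped, and the difference in means was smaller than the wild-type spread. In bulk samples fewer cells of a type and less RNA per cell cannot be told apart.

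No member was called higher or lower in Nfkb2-/- Tregs. Over all 13347 genes tested, edgeR's quasi-likelihood test with Benjamini-Hochberg adjustment called 1.01% higher and 0.405% lower at an adjusted p under 0.05. Among the 83 members it called 0 in either direction. DESeq2, limma-voom and the edgeR fit with the replicate number as a block also called 0 members, where they called 3.21%, 1.14% and 1.47% of all genes higher and 1.89%, 0.33% and 0.697% lower. At an unadjusted p under 0.05, edgeR had 0 members higher and 1 lower, Rps27rt, where 7.25% of all genes were higher and 6.35% lower at that level. The median log2 fold change, Nfkb2-/- over wild type, was -0.15 over the tested members and -0.03 over all genes. Fold changes were negative in 68 of 83 members, or 81.9%, and in 55.0% of all genes, and they ran from -0.78 for Rps27rt to 0.31 for Rps27l.

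The sign of the median depended on which wild-type library was left out. Without wild-type library 1 the members' median was -0.39, and edgeR called 7 members lower at an adjusted p under 0.05, where 4.44% of all genes were called lower. They included Rps2, Rps19, Rpl29, Rpl35a, Rpl22l1 and Rps27rt, of which Rpl29 and Rpl35a are named after their values were seen. Without wild-type library 3 the median was 0.16 and edgeR called 0 members, where it called 0.406% of all genes higher and 0.0725% lower. The large-subunit core median moved from -0.12 to -0.36 and 0.22, and the small-subunit core median from -0.20 to -0.42 and 0.11.

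**Figure D1:**
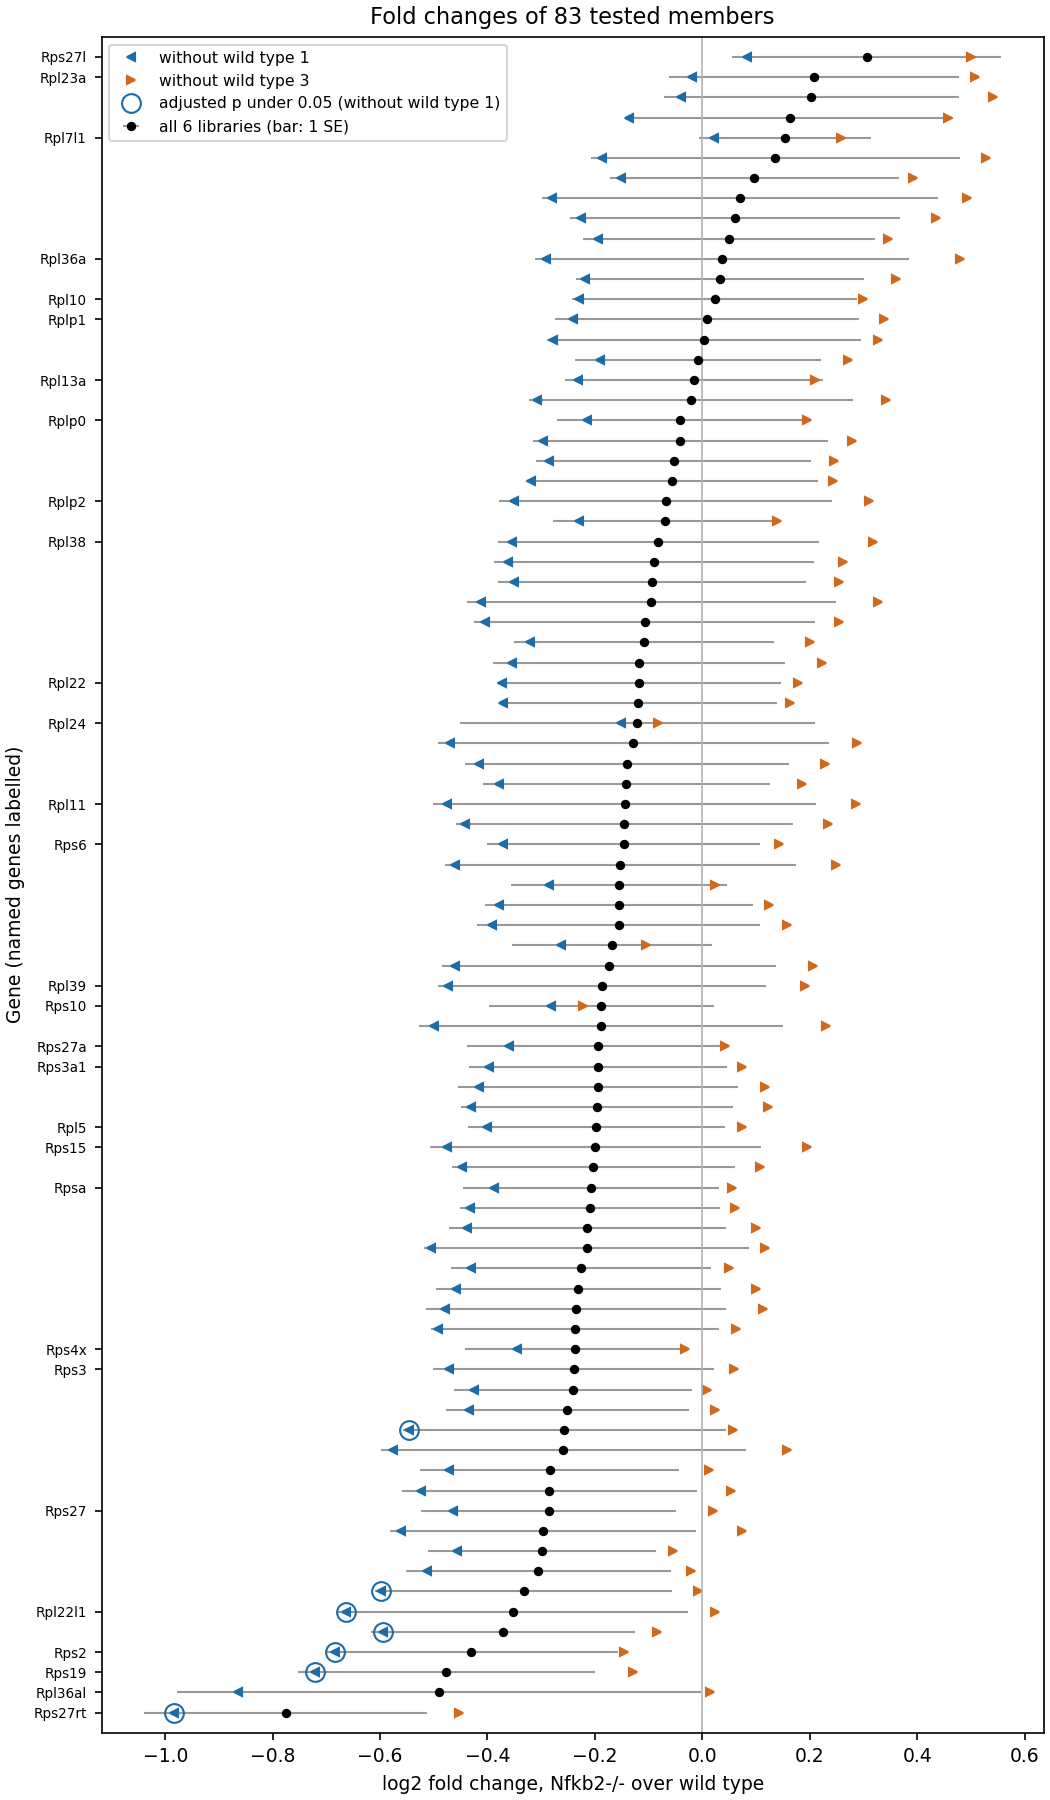
Log2 fold change of each of the 83 tested members, Nfkb2-/- over wild type, with all 6 libraries (black points, bars of 1 SE), without wild-type library 1 (blue) and without wild-type library 3 (orange); rings mark an adjusted p under 0.05 without wild-type library 1, and labels are given for genes chosen by the naming rule. The black points run from -0.78 for Rps27rt to 0.31 for Rps27l, with a median of -0.15, and the blue and orange points lie on either side of them in nearly every gene.

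The members followed 1 order of libraries. Wild-type library 1 was the lowest of the 6 for 76 of the 83 tested members, and wild-type library 3 the highest for 79. Both held for 74 members (89.2%), against 10.7% of all genes tested. That order by itself places all 3 Nfkb2-/- libraries between wild-type libraries 1 and 3, which held in the same 74 members and in 12.8% of all genes. Wild-type library 2 was above every Nfkb2-/- library in 49 members, among them in 29 and below them in 5. The ratio of wild-type library 3 to wild-type library 1 had a median of 2.20 over members and 0.980 over all genes. Within Nfkb2-/- the highest library exceeded the lowest by a median factor of 1.11 over members and 1.24 over all genes. CPM ranges of the 2 genotypes did not overlap for 1 of the 83 members, Rps27rt, where 20.6% of all genes did not overlap.

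**Figure D2:**
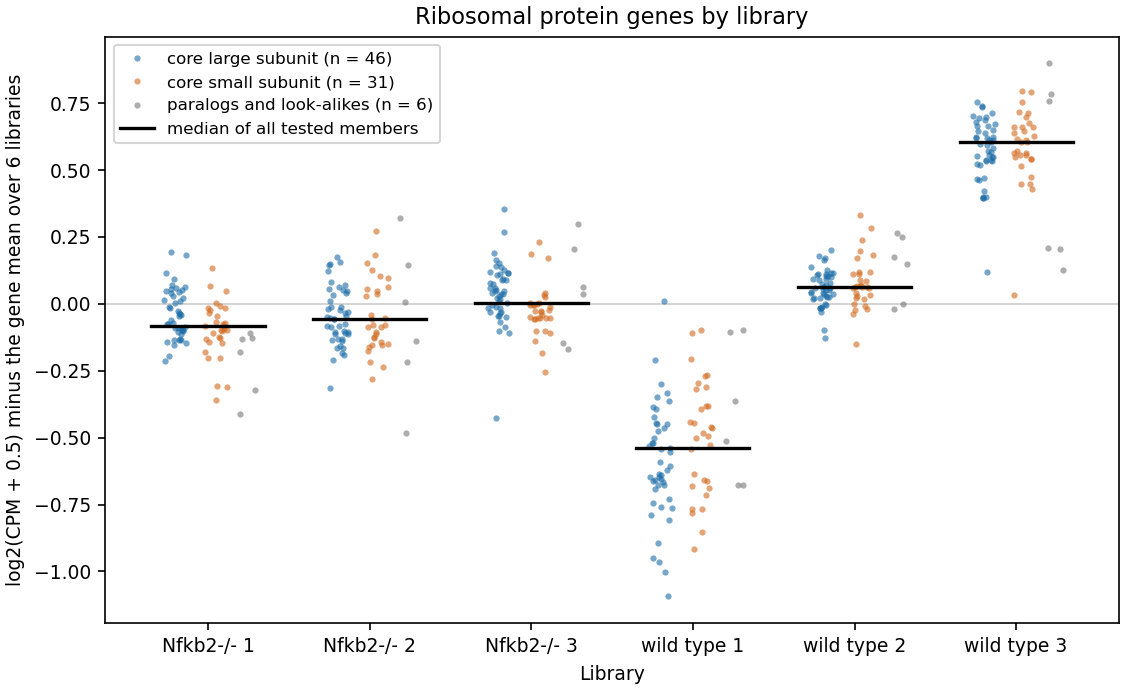
Log2(CPM + 0.5) of each tested member minus its mean over the 6 libraries, by library (points, coloured by class; lines are medians over members). The 3 Nfkb2-/- medians lie at -0.08, -0.06 and 0.00, while the wild-type medians lie at -0.54, 0.06 and 0.60.

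Stalk proteins, which recruit elongation factors to the ribosome, followed this order. Rplp0 (chromosome 5, 115559467 to 115563727), the base of the stalk, was at 3212, 2986 and 3276 CPM in Nfkb2-/- and at 2419, 3094 and 4232 CPM in wild-type libraries 1 to 3. Its log2 fold change was -0.04 (SE 0.23, edgeR adjusted p = 0.961). Rplp1 (chromosome 9, 61913284 to 61914542) gave 2353, 2187 and 2277 CPM against 1407, 2180 and 3189 CPM. Rplp2 (chromosome 7, 141447370 to 141451585) gave 1244, 1155 and 1250 CPM against 725, 1231 and 1870 CPM. In all 3 genes the Nfkb2-/- libraries sat inside the wild-type range, and the fold changes of Rplp1 and Rplp2 were 0.01 and -0.07 on the log2 scale.

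Several large-subunit proteins have roles of their own. Rpl5 and Rpl11 form a complex with the small rRNA of the large subunit that restrains Mdm2 when ribosome production fails. Rpl5 (chromosome 5, 107900502 to 107909005) was at 1245, 1278 and 1321 CPM in Nfkb2-/- and at 1027, 1405 and 1976 CPM in wild type. Rpl11 (chromosome 4, 136028265 to 136053428) was at 665, 748 and 732 CPM and at 384, 785 and 1203 CPM, a 3.14-fold range between wild-type libraries 1 and 3 where Rpl5 had 1.92-fold. The genotypes overlapped in both genes, with log2 fold changes of -0.20 for Rpl5 and -0.14 for Rpl11. The widest such range in the core, 3.35-fold, belonged to Rpl37, which is named for that reason.

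Rpl10, a late-joining protein near the peptidyl transferase centre, Rpl38, known from its part in Hox mRNA translation, and Rpl39, which lines the exit tunnel, behaved alike. Rpl10 (X chromosome, 74270812 to 74273135) was at 743, 697 and 791 CPM in Nfkb2-/- against 454, 752 and 990 CPM in wild type. Rpl38 (chromosome 11, 114668524 to 114672331) was at 248, 220 and 250 CPM against 148, 235 and 377 CPM. Rpl39 (X chromosome, 37082520 to 37085402) was at 279, 332 and 322 CPM against 199, 344 and 518 CPM. For these genes wild-type library 1 was lowest and wild-type library 3 highest, and the log2 fold changes were 0.02, -0.08 and -0.19. Rpl23a (chromosome 11, 78180932 to 78183584) had the largest positive log2 fold change of the core, 0.21 (SE 0.27, edgeR adjusted p = 0.810). Rpl23a was at 34.4, 26.9 and 38.8 CPM in Nfkb2-/- against 19.3, 27.6 and 39.9 CPM in wild type. Those levels rest on 416, 382 and 476 counts against 358, 349 and 475 counts. Its pseudogene Rpl23a-ps3 held more, with 1338, 2052 and 1522 counts against 1454, 2009 and 2671 counts. Of the Rpl23a mRNA bases, 55.4% also lie in exons of Tlcd1. The part of the pseudogene and of this overlap in the positive value was not tested.

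In the small subunit, Rps3, the reported RelA partner (chromosome 7, 99477896 to 99483738), was at 1413, 1458 and 1485 CPM in Nfkb2-/- and at 1117, 1665 and 2360 CPM in wild type. The log2 fold change of Rps3 was -0.24 (SE 0.26, edgeR adjusted p = 0.770), and the Nfkb2-/- libraries lay between wild-type libraries 1 and 2. Rps6, the substrate of S6 kinase (chromosome 4, 86854660 to 86857412), was at 1315, 1269 and 1344 CPM against 963, 1403 and 1981 CPM, with a log2 fold change of -0.15. Rpsa, the laminin receptor precursor (chromosome 9, 120127689 to 120132369), was at 2807, 2650 and 2902 CPM against 2365, 2994 and 4290 CPM, with a log2 fold change of -0.21. Each of these genes repeats the order of the whole group. Rps15 (chromosome 10, 80292453 to 80294114) and Rps3a1 (chromosome 3, 86137940 to 86142702), among the highest members per kilobase of exon, had log2 fold changes of -0.20 and -0.19.

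Rps19 and Rps2 had the most negative fold changes of the core. Rps19, mutated in Diamond-Blackfan anaemia (chromosome 7, 24884371 to 24889806), was at 639, 713 and 719 CPM in Nfkb2-/- and at 608, 899 and 1375 CPM in wild type. The log2 fold change of Rps19 was -0.48 (SE 0.28, edgeR adjusted p = 0.533). Rps2, at the mRNA entry site (chromosome 17, 24718116 to 24721929), was at 875, 992 and 1009 CPM against 798, 1319 and 1759 CPM, and edgeR gave -0.43 on the log2 scale (SE 0.27, adjusted p = 0.573). In both genes wild-type library 1 was the lowest of the 6, and wild-type libraries 2 and 3 lay above every Nfkb2-/- library. Without wild-type library 1, the edgeR values were -0.72 for Rps19 (adjusted p = 0.0188) and -0.68 for Rps2 (adjusted p = 0.0134). Leaving out the lowest wild-type library raises the wild-type mean, and that fit called 4.44% of all genes lower. Without wild-type library 3 the median of the small-subunit core was 0.11. Both genes were named for a small p among negative fold changes.

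Rps27a encodes a ribosomal protein fused to ubiquitin, and Fau encodes one fused to a ubiquitin-like protein. Rps27a (chromosome 11, 29545846 to 29548109) was at 372, 577 and 421 CPM in Nfkb2-/- and at 396, 489 and 682 CPM in wild type. Its Nfkb2-/- libraries spread 1.55-fold, wider than those of any core member but Rpl24, and their lowest lay below wild-type library 1. Outside the symbol rule, Fau was at 749, 876 and 789 CPM against 637, 1000 and 1504 CPM, and edgeR gave -0.38 on the log2 scale (SE 0.29, adjusted p = 0.650). Without wild-type library 1, Fau had -0.64 (edgeR adjusted p = 0.0339), and without wild-type library 3 it had -0.03.

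Rps4x (X chromosome, 102184941 to 102189394), 1 of 4 X-linked core members, had the narrowest wild-type range of the core after Rps10 and Rpl24. It was at 1591, 1349 and 1638 CPM in Nfkb2-/- and at 1522, 1595 and 2279 CPM in wild type, so library 1 of wild type was not the lowest. The ratio of wild-type library 3 to library 1 was 1.50 for Rps4x, and the log2 fold change was -0.24 (SE 0.20, edgeR adjusted p = 0.692). The other X-linked members, Rpl10, Rpl36a and Rpl39, had log2 fold changes of 0.02, 0.04 and -0.19. Set beside the sex-linked transcripts that separate the genotypes, no X-linked ribosomal protein gene was called.

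The balance between subunits varied little over the 6 libraries. The 46 core large-subunit genes took 55.3%, 54.5% and 55.2% of core CPM in Nfkb2-/- and 53.3%, 54.0% and 53.7% in wild type. The means were 55.0% ± 0.416 (SD, n = 3) and 53.7% ± 0.387 (SD, n = 3). Here the genotypes did not overlap, with the Nfkb2-/- libraries higher, where 20.6% of all single genes tested did not overlap in CPM. Being a sum over members, this share was not tested. The median log2 fold change of the large-subunit core was -0.12, with 10 of 46 positive, and that of the 31 small-subunit core genes was -0.20, with 3 positive.

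**Figure D3:**
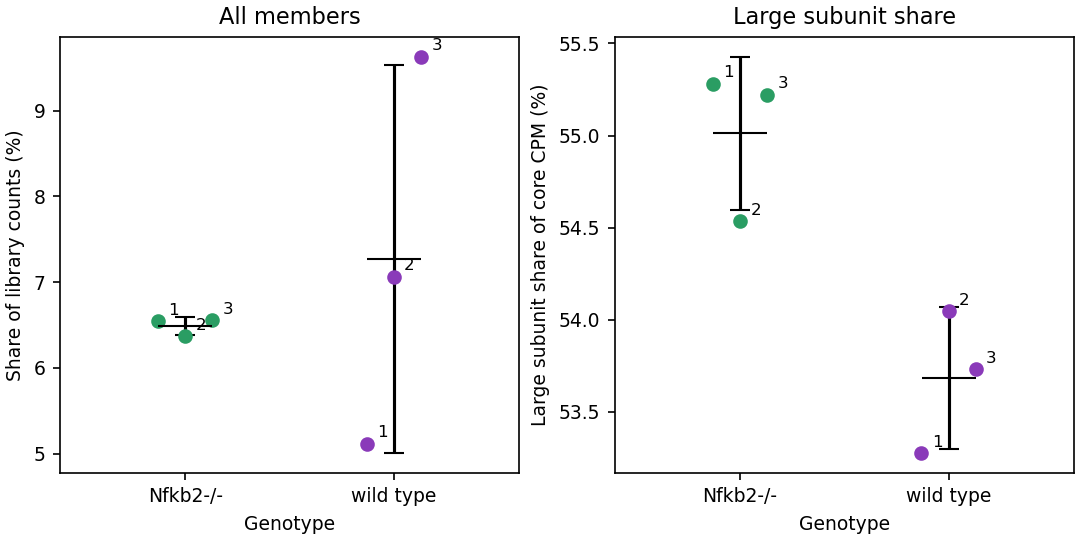
Left, percent of library counts in the 86 members; right, percent of core CPM in large-subunit genes, by genotype (points are libraries with their numbers, lines are the mean and bars 1 SD, n = 3; neither axis starts at 0). The left values overlap between genotypes, with wild type from 5.12% to 9.63%, and the right values do not, at 54.5% to 55.3% against 53.3% to 54.0%.

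Paralogs had far fewer counts than their partners. Rpl22 (chromosome 4, 152325742 to 152334071), needed for alpha-beta T cell development, was at 336, 360 and 363 CPM in Nfkb2-/- and at 235, 387 and 527 CPM in wild type. Its paralog Rpl22l1 (chromosome 3, 28805436 to 28807424) was at 36.2, 35.3 and 42.2 CPM against 25.5, 49.0 and 71.1 CPM, which is 9.79% to 11.6% of the Rpl22 counts in Nfkb2-/- and 10.8% to 13.5% in wild type. Rps27 (chromosome 3, 90212522 to 90213651) was at 799, 728 and 815 CPM against 704, 835 and 1318 CPM. Rps27l (chromosome 9, 66946086 to 66949516), a p53 target, was at 22.6, 31.0 and 30.5 CPM against 15.3, 24.4 and 28.6 CPM, the most positive log2 fold change of all members at 0.31 (SE 0.25, edgeR adjusted p = 0.676).

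Rpl36a (X chromosome, 134585654 to 134588062) was at 277, 296 and 297 CPM in Nfkb2-/- and at 139, 276 and 433 CPM in wild type. Its retrocopy Rpl36al (chromosome 12, 69182731 to 69184083) had 12, 14 and 12 counts against 12, 17 and 27 counts. Of the Rpl36al mRNA bases, 63.1% also lie in exons of Gm49383, and the part of this overlap in its counts was not tested. The mean log2 ratio of paralog to partner, Nfkb2-/- minus wild type, was -0.20 for Rpl22l1, 0.57 for Rps27l and -0.52 for Rpl36al. Exact two-sided permutation tests gave p = 0.2, 0.2 and 0.1, each 0.2 after adjustment over the 3 pairs, where 3 against 3 libraries cannot go below 0.1. Between libraries of the same number the paralog ratio was lower in Nfkb2-/- in 3 of 3 pairs for Rpl22l1 and Rpl36al. For Rps27l it was higher in 3 of 3. The Rpl22l1 differences on the log2 scale were -0.0067, -0.37 and -0.21, so libraries numbered 1 were nearly equal. An exact paired permutation test gave p = 0.25 for each of the 3 paralogs, the smallest that 3 pairs allow. The Rpl36al ratio did not overlap between genotypes, at 0.329% to 0.358% of Rpl36a counts in Nfkb2-/- and 0.465% to 0.523% in wild type. Rpl7l1 (chromosome 17, 46773907 to 46782672), a look-alike of Rpl7, was at 76.0, 90.7 and 94.5 CPM against 63.6, 81.9 and 89.5 CPM, and edgeR gave 0.15 on the log2 scale (SE 0.16, adjusted p = 0.756).

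Rps27rt (chromosome 9, 114982366 to 114982739, minus strand), whose whole span of 374 bases is exon, was the member farthest from no change. It was at 16.4, 15.6 and 19.5 CPM in Nfkb2-/- and at 20.4, 26.4 and 41.3 CPM in wild type, so every Nfkb2-/- library was lower. By edgeR its log2 fold change was -0.78 with an SE of 0.26, and its adjusted p was 0.239. Only this member's unadjusted edgeR p, from the fit across all genes, was under 0.05. The 2 start sequences printed for Rps27 and Rps27rt share their bases from the tract on: the longest identical run, 38 bases in the promoter table, begins at the first base of the Rps27rt transcript. Of the 50-base windows of its mRNA, 91.1% also occur in another annotated gene, as do 98.6% for Rps27, so how reads were divided between such copies bears on both values. How reads that fit several places were counted was not given in the sources used here.

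The count filter left out 3 members. Rpl3l, the striated-muscle form of Rpl3 (chromosome 17, 24727820 to 24736143), and Rpl10l, the testis form of Rpl10 (chromosome 12, 66283379 to 66284401), had 0 counts in all 6 libraries, which allows up to 0.162 to 0.252 CPM per library at 3 counts. Rpl39l, the testis form of Rpl39 (chromosome 16, 10170226 to 10174911), had 0, 4 and 2 counts in Nfkb2-/- and 1, 1 and 0 counts in wild type. Their parent genes were at 1051 to 2284 CPM (Rpl3), 454 to 990 CPM (Rpl10) and 199 to 518 CPM (Rpl39) over the 6 libraries.

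Per kilobase of mRNA, the mean level of the 77 core members had a median of 1075 CPM and ran from 2.71 to 4540 CPM. Per kilobase of exon, the highest of the 83 tested members were Rplp1 at 4540, Rplp0 at 1931, Rps15 at 1831 and Rps3a1 at 1662 CPM, and the lowest were Rpl36al at 0.889, Rpl24 at 1.78, Rps10 at 4.37 and Rpl13a at 9.69 CPM. In 6 members more than 50% of the mRNA bases also lie in exons of another annotated gene. Those were Rps10 (91.6%, with RPS10-NUDT3), Rpl24 (71.5%, with Gm28037), Rpl35 (68.3%, with Arpc5l and Wdr38), Rpl36al (63.1%, with Gm49383), Rpl13a (59.3%, with Gm45713 and Mir5121) and Rpl23a (55.4%, with Tlcd1).

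The 5 core genes among them were at 2.71 to 96.9 CPM per kilobase of mRNA, below all of the other 72 core genes, which ran from 226 to 4540 CPM with a median of 1112 CPM. Gm28037, RPS10-NUDT3, Gm45713 and Gm49383, which overlap Rpl24, Rps10, Rpl13a and Rpl36al, had 0 counts in all 6 libraries. Rpl24 (chromosome 16, 55966275 to 55971435) was at 2.15, 1.90 and 1.22 CPM in Nfkb2-/- and at 1.83, 1.90 and 2.02 CPM in wild type. Rps10 (chromosome 17, 27630418 to 27636669) was at 9.02, 11.0 and 8.31 CPM against 9.33, 12.7 and 10.2 CPM. Rpl13a (chromosome 7, 45125558 to 45128761) was at 18.0, 22.3 and 20.7 CPM against 14.1, 21.1 and 26.7 CPM. Rps10 and Rpl24 were also among the 3 members that departed most from the members' library pattern, with wild-type library 3 only 1.10-fold above library 1 in each. Both rest on few counts, 102 to 173 per library for Rps10 and 15 to 34 for Rpl24. Gm28037, RPS10-NUDT3, Gm45713 and Gm49383 lie on the same strand as the members they overlap, so strand could not separate their reads. Tlcd1 lies on the strand opposite to Rpl23a, and Arpc5l and Wdr38 on the strand opposite to Rpl35. The library was unstranded, so reads over those overlaps cannot be assigned by strand either. The part of the counting, and of pseudogene copies, in these levels was not tested.

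**Figure D4:**
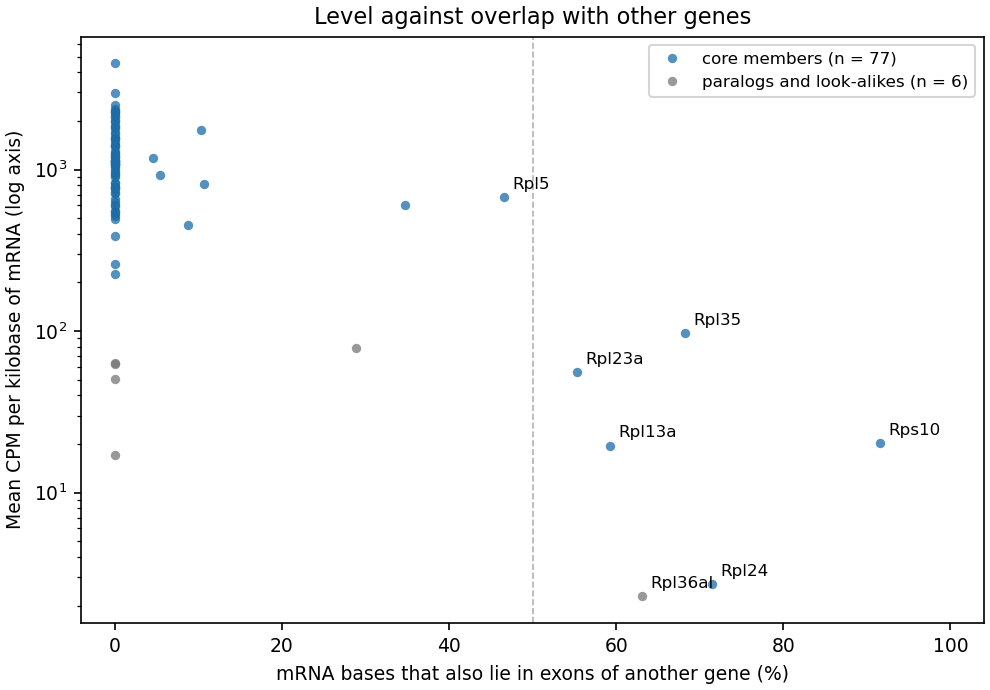
Mean CPM per kilobase of mRNA over the 6 libraries (log axis) against the percent of mRNA bases that also lie in exons of another annotated gene, 1 point per tested member; the dashed line marks 50%. Right of the line, 5 core genes and Rpl36al lie at 2.29 to 96.9 CPM per kilobase, while the core genes left of it lie at 226 to 4540.

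Copies elsewhere in the genome are common for the members. The median core member shared 61.2% of its 50-base windows with another gene, with a highest value of 98.6% for Rps27, and 51 of the 77 shared at least 50%. The files list 298 pseudogenes named after a member, for 60 of the 86 members, and 121 of these pseudogenes were at 0 counts in every library. Together they held 0.160% to 0.164% of the counts in Nfkb2-/- and 0.127%, 0.184% and 0.253% in wild-type libraries 1 to 3, the same order as the members. Of the 79 that could be tested, edgeR called 0. Adding their reads brought the mean share to 6.65% in Nfkb2-/- and 7.46% in wild type. Though small in sum, some pseudogenes held more counts than their parent. Rps10-ps2 had 1939, 2237 and 2166 counts in Nfkb2-/- and 2367, 2227 and 3138 counts in wild type. Rps10 itself had 109, 156 and 102 counts against 173, 161 and 122 counts. Rpl23a-ps3 likewise held more counts than Rpl23a in every library.

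Lists of the wider translation machinery were described in the same fit. The first, called the TOP list here, holds 20 genes known for TOP mRNAs: elongation and initiation factors and others such as Npm1, Tpt1 and Pabpc1, whose starts were not examined. The edgeR test called 0 of the 20 in the TOP list, 0 of 28 initiation factors, 0 of 25 mTORC1 pathway genes, 0 of 57 ribosome assembly genes (Rpl7l1 and Rps19bp1 among them), 0 of 17 RNA polymerase I genes, 0 of 11 snoRNA host genes and 0 of 77 mitochondrial ribosomal protein genes. At an unadjusted p under 0.05, edgeR had 5 of these genes higher and 6 lower, where 7.25% and 6.35% of all genes were. The medians of the log2 fold change were 0.01, 0.12, -0.09, 0.03, -0.03, -0.10 and -0.04 in that order. limma-voom also called 0 in each list, and DESeq2, which called 3.21% of all genes higher, called 1 higher in each of the initiation factor, mTORC1 and assembly lists.

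Members of these lists with the smallest p were of both signs. Eif2s3x, a subunit of the factor that brings initiator tRNA, was at 96.2, 121 and 105 CPM in Nfkb2-/- and at 58.7, 77.5 and 73.6 CPM in wild type (log2 fold change 0.62, edgeR adjusted p = 0.108). Eif2s3x is X-linked and has a Y copy, and the sex-linked transcripts above separate the genotypes. Larp4, which binds poly(A) tails and stabilises ribosomal protein mRNAs, was at 121, 137 and 148 CPM against 79.3, 103 and 81.1 CPM (0.62, edgeR adjusted p = 0.102). Riok1, a kinase of small-subunit maturation, was at 152, 131 and 136 CPM against 86.3, 94.6 and 107 CPM (0.54, edgeR adjusted p = 0.102). The genotypes did not overlap in these genes, which were named for a small p, and 20.6% of all genes did not overlap. Without wild-type library 1 the adjusted p values by edgeR were 0.0183, 0.0193 and 0.0236. Of the 13347 genes tested with all libraries, 619 were called higher in that fit.

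Lower values in Nfkb2-/- came from Akt1s1, which encodes the mTORC1 inhibitor PRAS40, with a log2 fold change of -0.42 (edgeR adjusted p = 0.235), and from the assembly factor Wdr12 with -0.47 (edgeR adjusted p = 0.301). The snoRNA hosts Snhg20 and Snhg12 had -0.60 and -0.55 (edgeR adjusted p = 0.183 and 0.354). Eif4e, the cap-binding factor, had 0.45 (edgeR adjusted p = 0.279). The mitochondrial ribosomal protein genes Mrps6 and Mrpl34 had 0.55 and -0.53 (edgeR adjusted p = 0.292 and 0.296). For Eif3l, Eef1g, Taf1c and Taf1b the log2 fold changes were 0.19, -0.18, -0.27 and -0.19, with edgeR adjusted p values of 0.569, 0.752, 0.529 and 0.666.

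The order of wild-type libraries extended in part to these lists. The median ratio of wild-type library 3 to library 1 was 1.62 for the TOP list, 1.95 for the snoRNA hosts, 1.53 for assembly genes, 1.41 for RNA polymerase I genes, 1.27 for initiation factors and 1.25 for mitochondrial ribosomal proteins. For mTORC1 pathway genes it was 1.01. Other coding genes with an mRNA under 1000 bases had 1.37, and those of 1000 bases or more had 0.958. Core ribosomal protein mRNAs have a median length of 729 bases, and the ratio for all tested members, 2.20, was the highest of these medians.

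**Figure D5:**
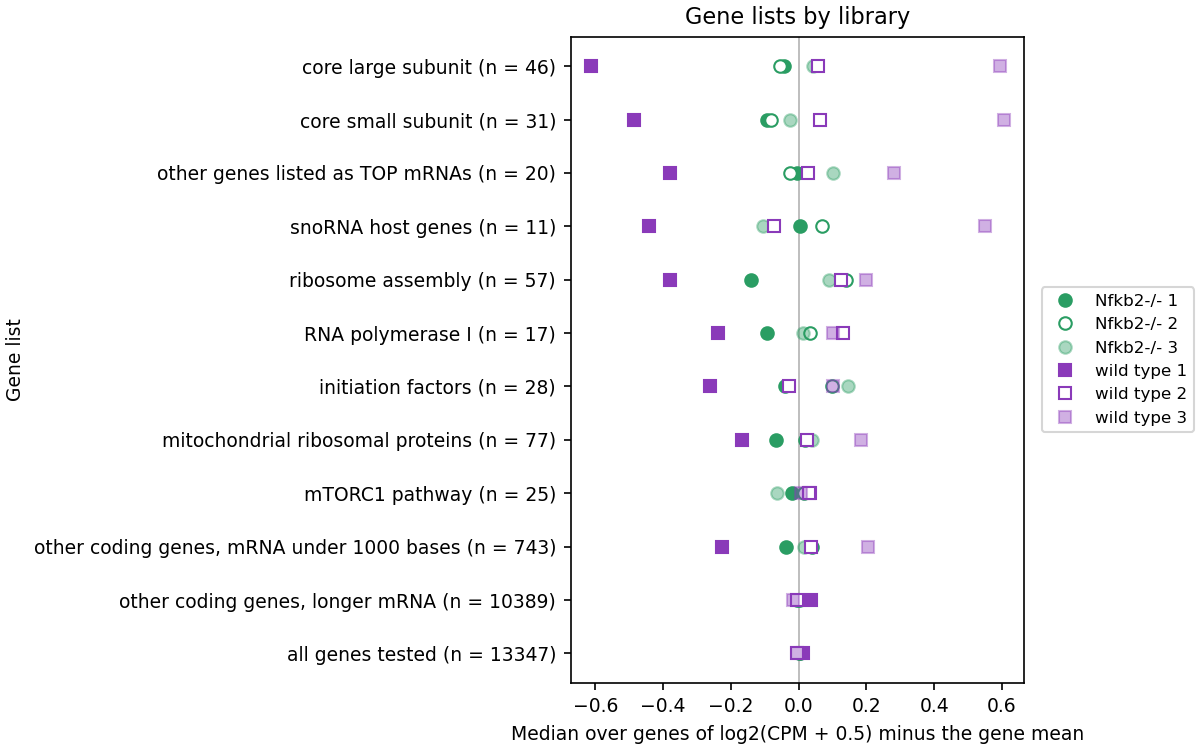
Median over the genes of each list of log2(CPM + 0.5) minus the gene's mean over 6 libraries, 1 symbol per library (circles Nfkb2-/-, squares wild type; n is the number of genes tested). Wild-type library 1 lies at -0.61 for the large-subunit core and -0.38 for the TOP list, wild-type library 3 at 0.60 and 0.28, and all libraries lie near 0 for the longer coding genes.

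Some other measures also set wild-type library 1 apart. Genes of annotated type rRNA summed to 1348 CPM there and to 326 to 583 CPM in the other 5 libraries. Nearly all of this sum came from 1 gene, CT010467.1, at 1339 CPM in wild-type library 1 and 320 to 575 CPM in the other 5. The 9 Treg markers summed to 3922 CPM in wild-type library 1 and to 6365 CPM in wild-type library 3, with 5358 CPM in wild-type library 2 and 5535 to 6019 CPM in Nfkb2-/-. Ctla4, a Treg effector gene, was at 798 CPM in wild-type library 1, 1745 CPM in wild-type library 2 and 2394 CPM in wild-type library 3, with 1386 to 1497 CPM in Nfkb2-/-. Of the 9 Treg markers, 5 were lowest in wild-type library 1 and 3 were highest in wild-type library 3, against 31.5% and 20.0% of all genes tested. Both held for 2 of the 9, Ctla4 among them, against 10.7% of all genes. Foxp3 was highest in wild-type library 1, at 622 CPM, and Ikzf2, another Treg transcription factor, was lowest in wild-type library 3, at 436 CPM, with 722 to 823 CPM in Nfkb2-/-. The part of rRNA reads, mRNA length and Treg state in the ribosomal protein levels was not tested.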

How the data were processed

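RNA-seq counts of genes were analysed in 6 libraries, 3 per genotype. The authors deposited raw, whole-number read counts for each gene. The tools named in the submitters' processing notes are HISAT2, HTSeq, FastQC and DESeq2, with the build GRCm38 and no versions. HTSeq's counting mode was not given in the sources used here. Of 55573 identifiers, 55394 matched GENCODE M21, which gave symbols, exons and coordinates. The fit was edgeR 4.0.16 in R 4.3.3 (filterByExpr, TMM, robust quasi-likelihood test, Benjamini-Hochberg over 13347 genes, threshold 0.05), with the genotype as its term; DESeq2 1.42.0 and limma 3.58.1 (voom) were alternatives. CPM uses TMM-scaled library sizes, and logs added 0.5. The mRNA length is that of the shortest complete principal transcript, a choice made after the data were seen. Paralog ratios used exact permutation (SciPy 1.17.1), and figures used matplotlib 3.10.9.

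The test was run on simulated counts of 13347 genes for this comparison, 13102 of which passed the filter. With 50 genes at each size of change, edgeR recovered 1 at 1.5-fold, 17 at 2-fold, 43 at 4-fold and 47 at 8-fold, and 12 of its 120 calls were false. Deviations of same-numbered libraries correlated at 0.381, 0.293 and 0.123, each over 0.1, so equal numbers may mark pairs, although the labels do not say what a number marks. The fit and tests reported leave the numbers out, and values with them as a block or as pairs are given beside them.

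Named were the 3 members with the smallest p in each direction, 20 members with known roles, the 4 highest and 4 lowest per kilobase of exon, members that failed the filter, and the 2 smallest p in each translation list. Members and lists were chosen with earlier results of these data known. Rps27rt was set with the paralogs after the lists were written, and Ctla4, Ikzf2, Rpl29, Rpl35, Rpl35a and Rpl37 were named after their values were seen. A few genes that these rules would name are not reported here.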

Additional observations from a re-analysis of the deposited data

How the results depend on the processing

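Over 9 settings of scaling, count filter, tool, replicate block and pseudogene reads, the members' median log2 fold change stayed between -0.17 and -0.09, the latter with the replicate block, and 0 members were called. Leaving out 1 library at a time gave medians from -0.39 (without wild-type library 1) to 0.16 (without wild-type library 3). Members called lower ranged from 0 to 7, the 7 without wild-type library 1, where 4.44% of all genes were called lower. The same leave-one-out fits gave medians from -0.11 to 0.15 for the TOP list, 0.036 to 0.21 for initiation factors, -0.099 to -0.043 for mTORC1 genes, -0.11 to 0.11 for assembly genes, -0.12 to 0.022 for RNA polymerase I genes, -0.31 to 0.16 for snoRNA hosts and -0.11 to 0.018 for mitochondrial ribosomal proteins. They called 0 to 1 gene higher among initiation factors, mTORC1 and assembly genes, and 0 to 1 lower among assembly genes, snoRNA hosts, mitochondrial ribosomal proteins and the ribosomal proteins outside the symbol rule. The fit without wild-type library 1 had 1 call in each of these. Of the 13347 genes tested with all libraries, that fit called 619 higher and 561 lower. With no count filter, 1 initiation factor and 1 mTORC1 gene were called higher. DESeq2, which called 3.21% of all genes higher, called 1 higher in each of these lists and 1 assembly gene. The mTORC1 median was -0.075 by limma-voom and -0.069 with the replicate block. Pseudogene reads moved the Nfkb2-/- share to 6.65%. Among 674 alternative fits of 45 named genes, 14 were calls, in 9 genes, and 9 of the 14 were without wild-type library 1. The block changed no call of a member. Causes were not tested. Leaving out a library also leaves fewer samples in the fit. In the simulated data edgeR recovered 1 of 50 changes of 1.5-fold and 17 of 50 of 2-fold.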
